A study of Mus musculus with 6 samples.

Results

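The genes described here are 10 members of the fibroblast growth factor (FGF) pathway, namely the ligand genes *Fgf2*, *Fgf7*, *Fgf9* and *Fgf18*, the receptor genes *Fgfr1*, *Fgfr2* and *Fgfr3*, and the Sprouty genes *Spry1*, *Spry2* and *Spry4*. They were chosen by symbol, and all 10 were found among the 23284 genes listed for each sample. RNA-seq was performed on ECFP+ osteoblasts (OBs) sorted from ectopic bone on day 10 (n = 3) and day 14 (n = 3) after a collagen sponge with BMP-2 was placed under the skin of *Col2.3*-ECFP mice. Both groups carried the reporter and received BMP-2, and no group without BMP-2 was part of this comparison. The *Col2.3* fragment of the type I collagen promoter drives ECFP, so the sort keeps cells by reporter brightness and leaves out CD45+ and dead cells. According to the methods, the mice were male, 12 to 16 weeks old, and each implant held 2.5 μg of BMP-2. Cells were freed with 0.25% trypsin (15 min) followed by 0.2% collagenase II (40 min), and the collagenase step was done 1 time for day 10 tissue but 2 times for day 14 tissue. The number of digestions and the day therefore cannot be told apart. The titles name biological replicates, but the number of mice behind each is not given in the sources used here, so p-values measure only the spread between these samples.

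FGFs are signalling proteins that bind heparan sulfate and activate receptor tyrosine kinases on the cell surface. The docking protein Frs2 and the adaptor Grb2 pass the signal to Ras and the MAP kinase cascade, and Sprouty proteins, whose genes are themselves induced by the pathway, hold that cascade back. In bone, FGFR1 and FGFR2 are known from osteoprogenitors and OBs, and FGFR3 is known above all as a brake on growth plate chondrocytes.

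The 200 bases before the start annotated in GENCODE are shown for the receptor gene and the ligand genes whose values the results turn on most, *Fgfr3*, *Fgf7* and *Fgf18*. They are RefSeq sequence of GRCm38.p6 (mm10), written 5′ to 3′ on the strand of the gene, with chr5:33721474-33721673 on the plus strand, chr2:126034458-126034657 on the plus strand and chr11:33147401-33147600 on the minus strand. Capitals mark GC boxes (GGGCGG on either strand).
Fgfr3: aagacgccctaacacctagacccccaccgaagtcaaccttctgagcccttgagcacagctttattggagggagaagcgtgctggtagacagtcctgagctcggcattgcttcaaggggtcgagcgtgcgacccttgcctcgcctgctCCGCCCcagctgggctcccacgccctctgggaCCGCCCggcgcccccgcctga
Fgf7: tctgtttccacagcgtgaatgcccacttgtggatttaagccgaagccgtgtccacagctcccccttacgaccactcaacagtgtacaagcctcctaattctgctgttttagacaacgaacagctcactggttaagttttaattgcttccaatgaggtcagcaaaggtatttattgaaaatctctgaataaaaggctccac
Fgf18: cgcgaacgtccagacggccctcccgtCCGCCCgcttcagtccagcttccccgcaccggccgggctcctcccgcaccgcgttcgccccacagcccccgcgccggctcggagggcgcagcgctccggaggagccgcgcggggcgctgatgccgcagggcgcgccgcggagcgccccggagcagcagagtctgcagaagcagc
GC boxes were found at 2 places in the window of *Fgfr3*, at 1 place in that of *Fgf18* and at 0 places in that of *Fgf7*, and 31.1% of 32841 RefSeq windows of this length held at least 1. G and C made up 65.0% of the bases for *Fgfr3*, 78.5% for *Fgf18* and 44.5% for *Fgf7*, against a median of 53.0% over all windows. The TATA box (letters TATAAA, on either strand) was found in 9.96% of all windows. The core of the RUNX motif (letters TGTGGT, on either strand) was found in 11.2% of them, and the core of the SOX motif (letters AACAAT, on either strand) in 7.47%. None of these was found in the 3 windows shown, which says only that the letters are not there.

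Values are FPKM, a read count scaled to transcript length and to the number of mapped reads, so they can be compared between genes. The estimated depth was 4538571 to 7772659 mapped reads per sample. The OB markers *Dlx5*, *Runx2*, *Sp7*, *Alpl*, *Col1a1*, *Ibsp* and *Bglap2* were above 0 FPKM in all 6 samples. Replicate 2 of day 14 stood apart from replicates 1 and 3 of that day. Its summed FPKM over 12 chondrocyte markers was 1134, against 117 and 75.2 in replicates 1 and 3 and 436 to 863 on day 10. Its summed FPKM over the 7 OB markers was 38269, against 19619 and 15669 in replicates 1 and 3 and 28368 to 54192 on day 10. Free-text descriptions place replicates 1, 2 and 3 of the later group on day 14, 15 and 16, while their titles place all 3 on day 14, and the titles were used. Fold changes of the members are therefore given with and without replicate 2 of day 14.

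No member passed the test between the days with all samples included. In limma on log2(FPKM + 0.1), 0 of the 10 had an adjusted p under 0.05, against 0.0154% of the 19526 genes tested. At an unadjusted p under 0.05 there were also 0 of the 10, against 10.0% of all genes. *Fgfr3* (lower) and *Fgf18* (higher) had a fold change over 2, which was the case for 13.6% of all genes. The samples of the days overlapped for all 10 members, while they did not overlap for 14.3% of all genes. The median log2 fold change of the members was 0.04, and that of all genes was −0.04. Without replicate 2 of day 14, the log2 fold changes of *Fgfr3*, *Fgfr2* and *Spry4* moved most among the 10 members, to −2.34, −1.08 and −0.67, while that of *Fgfr1* was 0.04. In that fit *Fgfr3* was lower on day 14 with an adjusted p of 0.0194 from limma, a call made for 0.386% of the genes tested. Both *Fgfr3* and *Fgfr2* had an unadjusted p under 0.05 there, as did 13.0% of all genes.

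**Figure D1:**
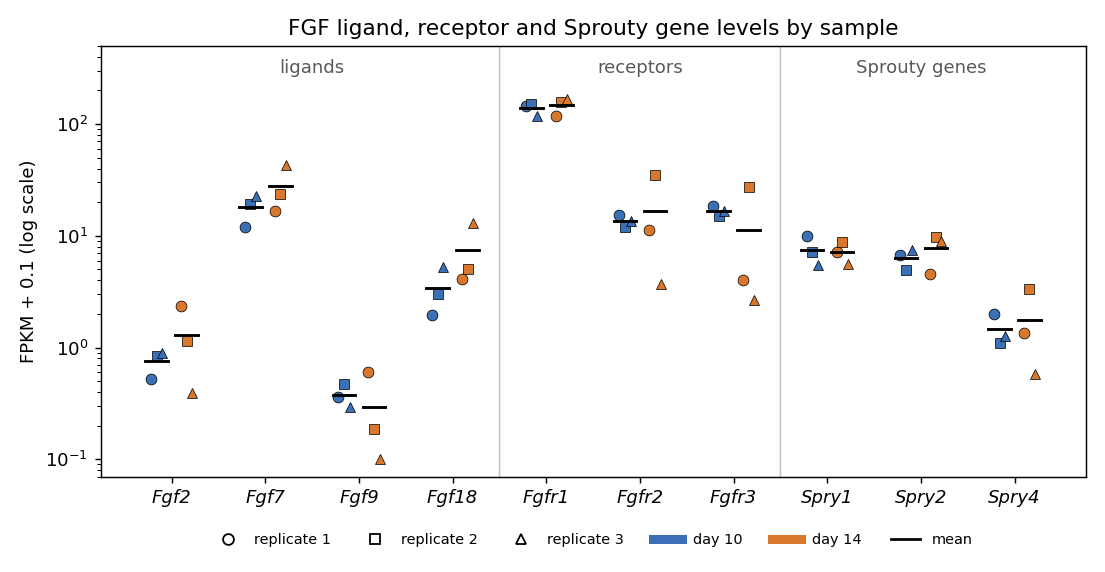
FPKM + 0.1 on a log axis for each of the 10 genes (x axis) in each sample, with day 10 in blue, day 14 in orange, the marker shape giving the replicate and the bar the arithmetic mean of 3 samples. *Fgfr1* lies above all other members in every sample, and the day 14 samples of *Fgfr2* and *Fgfr3* spread from 3.57 to 34.9 and from 2.58 to 27.3 FPKM.

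Among the receptor genes, *Fgfr1* was the highest in every sample. *Fgfr1* lies on chromosome 8 from 25513654 to 25575718 in mm10 (GENCODE vM21). Its level was 145, 151 and 117 FPKM in day 10 replicates 1, 2 and 3, and 119, 159 and 167 FPKM in day 14 replicates 1, 2 and 3. The groups overlapped, with a mean of 138 ± 18.2 FPKM (SD, n = 3) on day 10, compared with 148 ± 25.8 FPKM (SD, n = 3) on day 14. The log2 fold change of this gene was 0.10 (95% interval −0.33 to 0.53, adjusted p = 0.919 from limma), and this interval was the narrowest among the members. *Fgfr1* ranked 406 among all listed genes by mean FPKM on day 10 and 425 on day 14.

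*Fgfr3*, on chromosome 5 from 33721674 to 33737068, was tightly grouped on day 10, at 18.3, 14.8 and 16.5 FPKM in replicates 1, 2 and 3. On day 14 it was at 3.92, 27.3 and 2.58 FPKM in replicates 1, 2 and 3. Replicates 1 and 3 of day 14 thus lay below every day 10 sample and replicate 2 above every one. In bulk samples such as these, fewer cells that express a gene and less RNA per cell cannot be told apart. The mean was 16.6 ± 1.76 FPKM (SD, n = 3) on day 10, compared with 11.3 ± 13.9 FPKM (SD, n = 3) on day 14. On the log2 scale the fold change was −1.32 (95% interval −3.00 to 0.36, adjusted p = 0.605 from limma). Without replicate 2 of day 14 it was −2.34 (95% interval −2.90 to −1.78, adjusted p = 0.0194 from limma), where *Fgfr3* had rank 13 by p among the 19674 genes tested. That library was singled out after its values were seen, and the adjusted p of *Fgfr3* was above 0.05 in the fits that left out each of the other 5 samples.

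*Fgfr2* lies on chromosome 7 from 130162451 to 130266808 in the RefSeq annotation of the same assembly. It was at 15.2, 11.9 and 13.5 FPKM in day 10 replicates 1, 2 and 3, and at 11.1, 34.9 and 3.57 FPKM in day 14 replicates 1, 2 and 3. Replicate 2 of day 14 was again the highest of the 6 samples and replicate 3 the lowest, while replicate 1 was close to day 10. The mean was 13.5 ± 1.66 FPKM (SD, n = 3) on day 10, compared with 16.5 ± 16.4 FPKM (SD, n = 3) on day 14, so the sign of the difference is positive for the means and negative on the log scale. The log2 fold change was −0.26 (95% interval −1.79 to 1.27, adjusted p = 0.945 from limma). It was −1.08 (95% interval −2.06 to −0.10, adjusted p = 0.331 from limma) without replicate 2 of day 14. It was 0.55 (unadjusted p = 0.239 from limma) without replicate 3 of day 14.

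**Figure D2:**
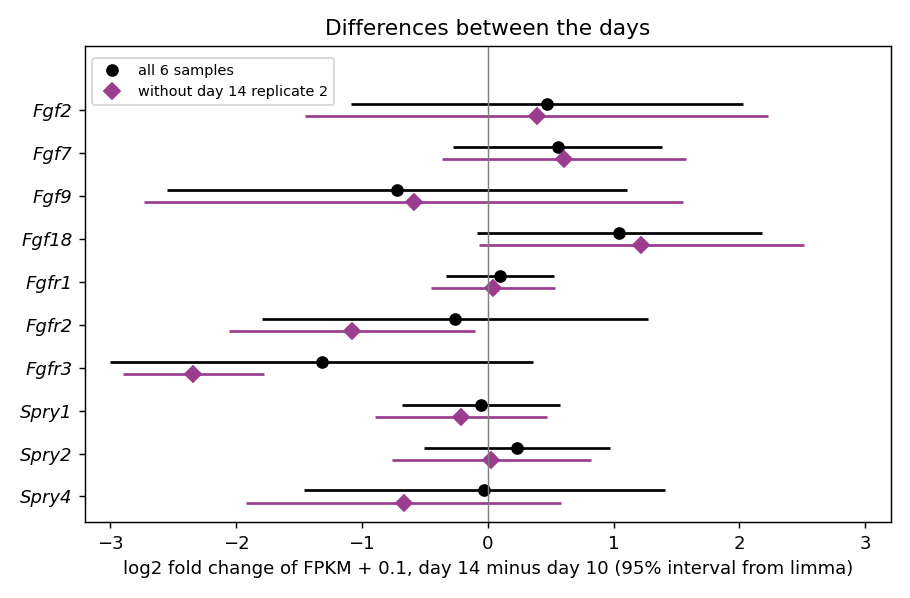
Log2 fold change of FPKM + 0.1 (x axis, day 14 minus day 10) for each gene (y axis), with the 95% interval from limma, for all 6 samples (black) and without replicate 2 of day 14 (purple). With all samples every interval includes 0, and without replicate 2 those of *Fgfr2* and *Fgfr3* lie below 0.

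The spread within day 14 was wider for *Fgfr2* and *Fgfr3* than for *Fgfr1*. The highest sample of day 14 exceeded the lowest 9.78-fold for *Fgfr2* and 10.6-fold for *Fgfr3*, but 1.41-fold for *Fgfr1*. On day 10 the corresponding values were 1.28-fold, 1.24-fold and 1.29-fold. No test of these spreads was run. The deposited values are per gene, so the epithelial and mesenchymal splice forms of the receptors, which differ in the ligands they bind, cannot be told apart here.

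Ratios within a sample do not depend on how samples are scaled to each other. *Fgfr1* supplied 81.9% ± 2.81 (SD, n = 3) of the summed FPKM of *Fgfr1*, *Fgfr2*, *Fgfr3* and *Fgfr4* on day 10 and 85.6% ± 12.6 (SD, n = 3) on day 14. Its share was 88.7%, 71.8% and 96.4% in day 14 replicates 1, 2 and 3, which lies outside the day 10 range of 79.5% to 84.9% on both sides. The share of *Fgfr3* was 10.3%, 8.33% and 11.2% in day 10 replicates 1, 2 and 3, and 2.92%, 12.4% and 1.49% in day 14 replicates 1, 2 and 3. The share of *Fgfr2* was 6.65% to 9.16% on day 10 and 8.31%, 15.8% and 2.06% in day 14 replicates 1, 2 and 3. The shares of the days overlapped for each receptor gene.

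Of the 3 ratios between these receptor genes, that of *Fgfr3* to *Fgfr2* kept the days apart. *Fgfr3* had 1.21, 1.25 and 1.22 FPKM per FPKM of *Fgfr2* in day 10 replicates 1, 2 and 3. It had 0.352, 0.781 and 0.722 FPKM per FPKM of *Fgfr2* in day 14 replicates 1, 2 and 3. *Fgfr3* was therefore the higher of the pair in every day 10 sample and the lower in every day 14 sample, replicate 2 included. The mean ratio was 1.23 ± 0.0218 (SD, n = 3) on day 10, compared with 0.618 ± 0.233 (SD, n = 3) on day 14. For single genes, the samples of the days did not overlap for 14.3% of the genes tested. The share among ratios of other gene pairs was not counted, and this ratio was singled out after the values were seen. No test was run on the ratios. Those of *Fgfr2* to *Fgfr1* and of *Fgfr3* to *Fgfr1* overlapped between the days, at 0.0214 to 0.220 and 0.0154 to 0.172 on day 14.

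**Figure D3:**
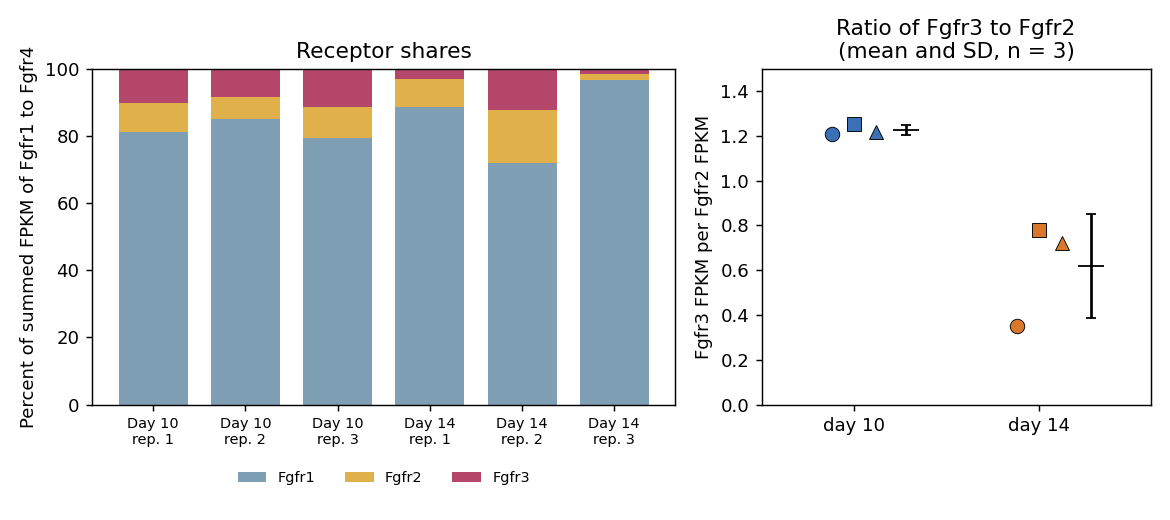
Left, percent of the summed receptor FPKM taken by *Fgfr1*, *Fgfr2* and *Fgfr3* in each sample, where *Fgfr4* takes at most 0.207%. Right, FPKM of *Fgfr3* per FPKM of *Fgfr2* in each sample with the mean and SD of 3 samples, where the day 10 samples lie between 1.21 and 1.25 and the day 14 samples between 0.352 and 0.781.

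Within day 14, *Fgfr3* and the markers of OBs and chondrocytes were all highest in replicate 2, which held for 7 of 7 OB markers and 12 of 12 chondrocyte markers. Replicates 1 and 3 of day 14 both lay below every day 10 sample for 6 of the 7 OB markers and 10 of the 12 chondrocyte markers, as for *Fgfr3*. The share of all genes with these patterns was not counted. Relative to day 10 the lists differed from *Fgfr3*, since replicate 2 of day 14 was the highest of all 6 samples for 1 of the 7 OB markers and 7 of the 12 chondrocyte markers. *Col2a1*, the main cartilage collagen gene, was at 373, 321 and 189 FPKM in day 10 replicates 1, 2 and 3 and at 12.1, 688 and 8.75 FPKM in day 14 replicates 1, 2 and 3. *Alpl*, the alkaline phosphatase gene of mineralizing cells, was at 1129, 1055 and 809 FPKM on day 10, against 273, 1300 and 186 FPKM on day 14 in the same order. *Alpl* was the OB marker with its highest value in replicate 2 of day 14, while *Sp7*, an OB transcription factor gene, was at 73.7, 51.1 and 40.1 FPKM on day 10 but at 9.79, 27.9 and 4.09 FPKM on day 14. All 12 chondrocyte markers were above 0 in at least 1 sample, and 10 were above 0 in all 6. The exceptions were *Matn1*, a cartilage matrix gene that was never above 0.455 FPKM, and *Snorc*. The part of chondrocytes and of OB number in the level of *Fgfr3* was not tested.

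Genes with the most similar profiles were sought among 6379 genes with a mean of at least 5 FPKM, by Pearson r on log2(FPKM + 0.1) over the 6 samples. These values describe 6 points that share library and day, and no p is given. Nearest to *Fgfr3* were *Nudt2*, *Wnt5b*, *Arpc5l*, *Ccdc104* and *Arhgef1*, with r between 0.988 and 0.990. Of the chondrocyte markers ranked, *Col2a1*, *Acan* and *Col10a1* had rank 6, 19 and 56. Of the OB markers ranked, *Alpl*, *Ibsp* and *Sp7* had rank 8, 67 and 210. *Wnt5b*, which codes for a Wnt ligand of the growth plate, was at 16.9, 13.4 and 13.6 FPKM on day 10, against 6.87, 19.7 and 6.28 FPKM on day 14. Nearest to *Fgfr2* were *Chmp4b*, *Ssna1*, *Cited2*, *Pemt* and *Fancc*, with r between 0.958 and 0.981. The cartilage collagen gene *Col10a1* had rank 18 (r = 0.930), while *Col2a1* and *Acan* had rank 184 and 280. The OB markers *Alpl*, *Ibsp* and *Sp7* had rank 161, 209 and 518 there. Among the nearest to *Fgfr1* were *Rnh1*, *Tubgcp4*, *Fam173a* and *Capn2*, with r between 0.970 and 0.993. No gene named as nearest was so for more than 1 receptor.

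Among the ligand genes, *Fgf7* had the highest level and *Fgf18* the largest fold change between the days. *Fgf7* codes for a mesenchymal ligand that acts on the epithelial form of FGFR2, and lies on chromosome 2 from 126034658 to 126091185. It was at 11.9, 19.2 and 22.7 FPKM in day 10 replicates 1, 2 and 3 and at 16.4, 23.7 and 42.7 FPKM in day 14 replicates 1, 2 and 3. Replicates 2 and 3 of day 14 were above every day 10 sample and replicate 1 was within their range. The mean was 18.0 ± 5.50 FPKM (SD, n = 3) on day 10, compared with 27.6 ± 13.6 FPKM (SD, n = 3) on day 14. On the log2 scale the fold change was 0.55 (95% interval −0.27 to 1.38, adjusted p = 0.677 from limma), and it was 0.61 without replicate 2 of day 14. With 1 sample left out it ranged from 0.18 without replicate 3 of day 14 (unadjusted p = 0.565 from limma) to 0.87 without replicate 1 of day 14.

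*Fgf18*, on chromosome 11 from 33117430 to 33147400, codes for a ligand of FGFR3 that is made in the mesenchyme around cartilage and forming bone. It was at 1.86, 2.90 and 5.12 FPKM in day 10 replicates 1, 2 and 3 and at 3.99, 4.99 and 12.9 FPKM in day 14 replicates 1, 2 and 3. Only replicate 3 of day 14 was above every day 10 sample. The mean was 3.29 ± 1.67 FPKM (SD, n = 3) on day 10, compared with 7.30 ± 4.88 FPKM (SD, n = 3) on day 14. The log2 fold change was 1.05 (95% interval −0.08 to 2.18, adjusted p = 0.534 from limma), the smallest p among the members (unadjusted p = 0.0653 from limma). These values rest on an estimated 7.81 to 77.9 reads per sample, so the low day 10 values carry a large counting error. Without replicate 3 of day 14 the log2 fold change was 0.54 (unadjusted p = 0.242 from limma), and without replicate 2 it was 1.22 (unadjusted p = 0.0611 from limma).

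*Fam227b*, whose span covers *Fgf7* on the opposite strand, was at 0.587 FPKM in replicate 1 of day 10 and listed at 0 in the other samples. *Fgf7* and *Fgf18* both had their lowest value in replicate 1 of day 10 and their highest in replicate 3 of day 14. The ratio of *Fgf7* to *Fgf18* was 4.43 to 6.63 on day 10 and 3.31 to 4.74 on day 14. All 5 fibroblast markers were above 0 in all samples, and their summed FPKM was likewise lowest in replicate 1 of day 10 (287) and highest in replicate 3 of day 14 (1096). That sum was 327 and 528 in day 10 replicates 2 and 3 and 753 and 406 in day 14 replicates 1 and 2. By gene, replicate 3 of day 14 was the highest of the 6 samples for 5 of 5 fibroblast and 8 of 10 myeloid markers, and replicate 1 of day 10 was the lowest for 4 of 5 and 1 of 10. How many of all genes had their highest or lowest value in these samples was not counted. *Pi16*, a marker of adventitial fibroblasts, was at 8.21, 12.7 and 27.9 FPKM on day 10, against 45.7, 10.7 and 87.4 FPKM on day 14. The summed FPKM of 10 myeloid markers was also highest in replicate 3 of day 14 (627), and it was 36.6 to 163 on day 10. It was 268 in replicate 1 and lowest in replicate 2 of day 14 (20.2). The part of fibroblasts or myeloid cells in the level of either ligand gene was not tested.

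**Figure D4:**
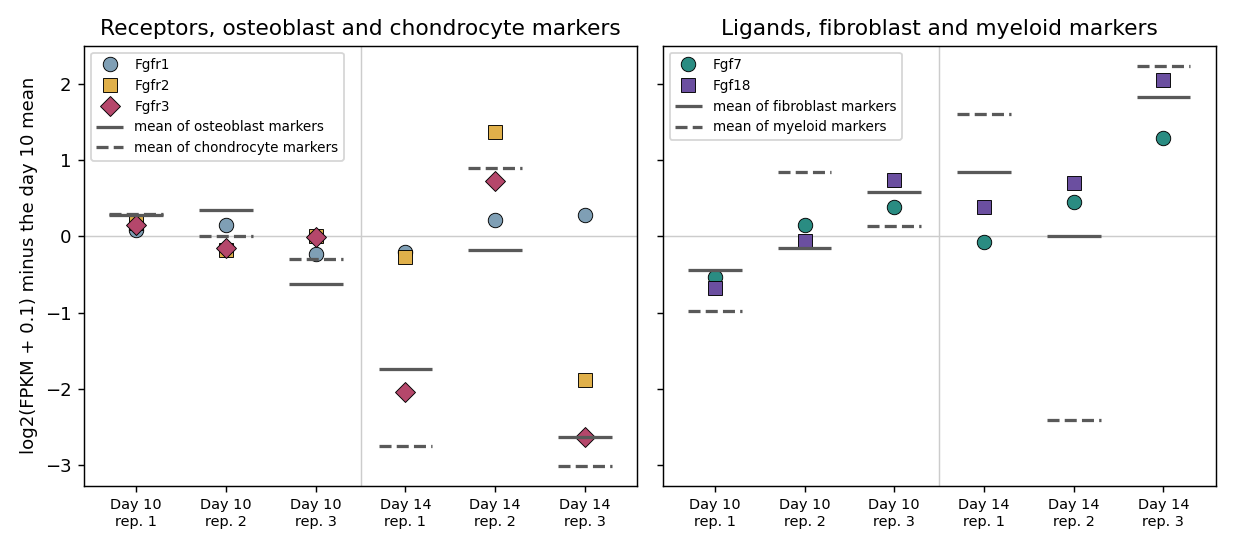
Log2(FPKM + 0.1) minus the day 10 mean (y axis) in each sample (x axis), for receptor genes beside the mean of the OB and chondrocyte markers (left) and for *Fgf7* and *Fgf18* beside the mean of the fibroblast and myeloid markers (right). *Fgfr3* lies low together with the OB and chondrocyte means in replicates 1 and 3 of day 14, and both ligand genes and both marker means are highest in replicate 3 of day 14.

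*Fgf2* and *Fgf9* were the lowest members by mean level on both days. *Fgf2*, which codes for a ligand stored in bone matrix, lies on chromosome 3 from 37348346 to 37410108. It was at 0.419, 0.746 and 0.791 FPKM in day 10 replicates 1, 2 and 3 and at 2.24, 1.04 and 0.290 FPKM in day 14 replicates 1, 2 and 3. Day 14 held both the highest and the lowest sample, and the log2 fold change was 0.47 (95% interval −1.08 to 2.03, adjusted p = 0.879 from limma). It was −0.13 without replicate 1 of day 14 and 0.39 without replicate 2. These values rest on an estimated 11.8 to 58.5 reads per sample. The 3′ end of *Fgf2* overlaps *Nudt6* on the opposite strand (1.05 to 3.12 FPKM over the 6 samples), and the counting is not stated to use strand, so reads of the pair cannot be told apart there.

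*Fgf9*, on chromosome 14 from 58070547 to 58112720, codes for a ligand of the mesenchymal receptor forms. It was at 0.259, 0.370 and 0.196 FPKM in day 10 replicates 1, 2 and 3 and at 0.500, 0.0857 and 0 FPKM in day 14 replicates 1, 2 and 3. The value listed at 0 allows up to 0.126 FPKM, which corresponds to 3 reads at the estimated depth of that sample and covers counting error only. No sample held more than an estimated 7.63 reads of *Fgf9*, and the log2 fold change was −0.72 (95% interval −2.55 to 1.11, adjusted p = 0.833 from limma). With 1 sample left out it ranged from −1.43 without replicate 1 of day 14 (unadjusted p = 0.0521 from limma) to −0.14 without replicate 3, and it was −0.59 without replicate 2.

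None of the Sprouty genes passed the test between the days. *Spry1*, on chromosome 3 from 37639947 to 37644598, was at 9.92, 7.00 and 5.40 FPKM in day 10 replicates 1, 2 and 3 and at 6.99, 8.71 and 5.52 FPKM in day 14 replicates 1, 2 and 3. All day 14 samples lay within the day 10 range. On the log2 scale the fold change was −0.05 (95% interval −0.68 to 0.57, adjusted p = 0.978 from limma), and it was −0.21 without replicate 2 of day 14.

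*Spry2*, on chromosome 14 from 105891947 to 105896819, was at 6.62, 4.83 and 7.37 FPKM in day 10 replicates 1, 2 and 3. It was at 4.42, 9.68 and 8.96 FPKM in day 14 replicates 1, 2 and 3, which reached both below and above day 10. The log2 fold change of this gene was 0.23 (95% interval −0.51 to 0.97, adjusted p = 0.875 from limma), and it was 0.03 without replicate 2 of day 14.

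*Spry4*, on chromosome 18 from 38586247 to 38601415, was the lowest of the Sprouty members. It was at 1.91, 0.995 and 1.17 FPKM in day 10 replicates 1, 2 and 3 and at 1.25, 3.27 and 0.484 FPKM in day 14 replicates 1, 2 and 3. As with *Fgfr2* and *Fgfr3*, replicate 2 of day 14 was the highest of the 6 samples and replicate 3 the lowest. On the log2 scale the fold change was −0.03 (95% interval −1.46 to 1.41, adjusted p = 0.997 from limma), and it was −0.67 (unadjusted p = 0.252 from limma) without replicate 2 of day 14. The summed FPKM of the 3 genes was 15.1 ± 2.98 (SD, n = 3) on day 10, compared with 16.4 ± 4.68 (SD, n = 3) on day 14.

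On both days *Fgfr1* was followed by *Fgf7*, which was 7.67-fold lower on day 10 and 5.37-fold lower on day 14, and the ranges of the pair were apart. *Fgf7*, *Fgfr3* and *Fgfr2* came next on day 10, and each had a range that overlapped that of its neighbour. *Fgfr2* was apart from *Spry1*, the next gene, whereas *Spry1*, *Spry2*, *Fgf18* and *Spry4* overlapped each with the next. *Spry4*, *Fgf2* and *Fgf9* were apart from each other in this order on day 10. On day 14 the ranges were apart only between *Fgfr1* and *Fgf7* and between *Spry1* and *Spry4*, and all other neighbours overlapped.

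Other genes of the pathway were taken from 4 lists of 58 genes, and none had an adjusted p under 0.05 from limma. At an unadjusted p under 0.05, 2 genes were higher and 1 was lower on day 14 among the 52 tested, which is 5.77% against 10.0% of all genes. Without replicate 2 of day 14, 1 was higher and 2 were lower among the 52, again 5.77% against 13.0% of all genes. In that fit *Fgf14* and *Hras* had an unadjusted p under 0.05 as before, *Map2k1* did not (unadjusted p = 0.0654 from limma), and *Map2k2*, named after its values were seen, was lower (unadjusted p = 0.0253 from limma). Of 18 other ligand genes 13 were tested and 1 was higher, and the list's median log2 fold change was 0.09. This gene was *Fgf14*, which codes for an intracellular FGF homologue that does not act through the receptors. *Fgf14* was at 0.156, 0.361 and 0.0981 FPKM on day 10, against 1.09, 0.708 and 1.08 FPKM on day 14 (log2 fold change of 1.87 with an adjusted p = 0.347 from limma). These levels are low, and reads were not estimated for this gene. The highest of the list were *Fgf21*, which codes for a circulating metabolic ligand (mean of 5.62 FPKM over the 6 samples), and *Fgf1* (1.20 FPKM), while *Fgf22* was listed at 0 in all samples.

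Of 9 other receptor, co-receptor and binding protein genes, 0 had an unadjusted p under 0.05, and the median log2 fold change was −0.28. Most of the 9 had a mean under 1 FPKM, and the 2 highest were not lower by a like amount. *Fgfrl1*, which codes for a receptor-like protein without a kinase domain, had 12.4 ± 1.37 FPKM (SD, n = 3) on day 10, compared with 12.9 ± 4.81 FPKM (SD, n = 3) on day 14 (log2 fold change −0.004). *Flrt2*, which codes for a membrane protein of the FLRT family, was next with a mean of 10.6 FPKM over the 6 samples (log2 fold change 0.35). *Fgfr4* (0 to 0.306 FPKM) and the klotho co-receptor genes *Kl* (0 to 0.445 FPKM) and *Klb* (0 to 0.505 FPKM) were near the floor.

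Of 19 signal relay genes, 1 was higher and 1 was lower at an unadjusted p under 0.05, and the median log2 fold change was 0.09. *Map2k1*, the gene of the kinase MEK1, was at 31.5, 32.1 and 37.1 FPKM on day 10, against 37.4, 45.8 and 55.6 FPKM on day 14 (log2 fold change 0.45, adjusted p = 0.459 from limma). *Hras*, a Ras gene, was at 21.5, 21.0 and 17.2 FPKM on day 10, against 11.3, 17.0 and 12.7 FPKM on day 14 (log2 fold change of −0.55 with an adjusted p = 0.409 from limma). Of the 19 relay genes, 3 higher and 1 lower had samples of the days that did not overlap, *Map2k1* and *Hras* among them. The same held for 14.3% of all genes. *Frs3*, which codes for a docking protein, was the lowest of the list with a mean of 0.293 FPKM over the 6 samples.

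Of 12 other feedback and target genes 11 were tested and 0 had an unadjusted p under 0.05, with a median log2 fold change of 0.11. *Spred1*, a relative of the Sprouty genes, had 25.6 ± 8.78 FPKM (SD, n = 3) on day 10, compared with 32.2 ± 8.11 FPKM (SD, n = 3) on day 14. *Dusp6*, which codes for a MAP kinase phosphatase that FGF signalling induces, had 21.7 ± 6.07 FPKM (SD, n = 3) on day 10, compared with 21.8 ± 1.34 FPKM (SD, n = 3) on day 14. *Spry3* was listed at 0 in all samples, so that 3 of the 4 Sprouty genes were measured above 0.

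**Figure D5:**
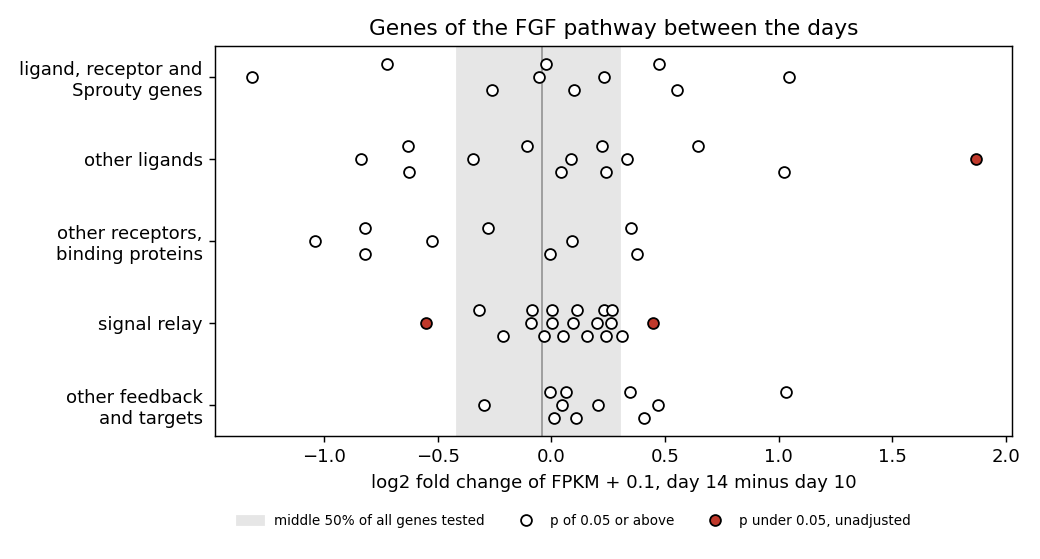
Log2 fold change of FPKM + 0.1 (x axis, day 14 minus day 10) of the 10 members and of the tested genes of 4 pathway lists (rows), with red points for an unadjusted p under 0.05 from limma and the grey band for the middle 50% of all genes tested (−0.42 to 0.30). The 3 red points are *Fgf14*, *Hras* and *Map2k1*, and none has an adjusted p under 0.05.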

How the data were processed

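RNA-seq of sorted OBs was analysed for 3 samples of day 10 and 3 of day 14, grouped by their titles. Per the labels and the study's methods, single-end reads of 75 bases were aligned to mm10 (TopHat2 2.0.13, with SAMtools 0.1.19 and Bowtie2 2.2.3). From these alignments the authors deposited FPKM values computed with Cufflinks 2.2.1, and the gene annotation and any scaling between samples are not given in the sources used here. In 1 file 25 symbols turned into dates were restored by position, and *Hras*, *Snorc* and *Fam227b* were found under older symbols.

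Genes with a mean above 0.1 FPKM were compared with limma 3.58.1 in R 4.3.3 on log2(FPKM + 0.1), with a mean-variance trend, the day as the only factor, two-sided p-values and Benjamini-Hochberg adjustment over all genes tested. Fold changes are those of FPKM + 0.1 and understate the change of low genes. Mapped reads were estimated from the steps between low FPKM values of 1977 genes with 1 transcript, with a fragment of 235 bases. Between 74.9% and 79.3% of these values came out within 0.1 of a whole read, and reads per gene are approximate. The script was tested on artificial data. The members and lists were chosen with earlier results of these data known.

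Named were the members, overlapping genes, pathway genes with an unadjusted p under 0.05 or at the ends of their list by level, receptors and co-receptors, *Spry3*, and the 5 nearest profiles per receptor gene. The values of 2 genes that this rule names are not reported here. Markers of 7 cell types were set beside them, of which 8 endothelial (1.75 to 3.21 FPKM summed on day 10, 3.46 to 6.74 on day 14), 6 mural (325 to 692 and 485 to 583) and 5 keratinocyte markers (1.83 to 2.77 and 0.450 to 2.43, *Krt15* at 0) are given here. The alternatives were another pseudocount, filter, scaling and variance model, the replicate number as a block, and leaving out each sample.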

Additional observations from a re-analysis of the deposited data

How the results depend on the processing

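Of 128 refits of single members under 13 alternative settings, 119 kept their direction and their side of an adjusted p of 0.05 from limma. Another filter or variance model, or the block, leaves the fold change as it was, so the direction could not turn in those refits. All members started above an adjusted p of 0.05, so staying on that side says little. The sign turned for *Spry4* with a pseudocount of 1 (log2 fold change 0.059) and, with samples left out in turn, within ranges of −0.67 to 0.60 for *Spry4*, −0.26 to 0.17 for *Spry1*, −0.13 to 1.16 for *Fgf2*, −0.015 to 0.25 for *Fgfr1* and −1.08 to 0.55 for *Fgfr2*. The cause of these turns was not tested, and no value with the turned sign had an unadjusted p under 0.05. *Fgfr3* kept its sign throughout (−2.34 to −0.66). *Fgf9* did too, at −0.11 with a pseudocount of 1.

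Members with a fold change over 2 numbered 1 with a pseudocount of 1. With samples left out in turn they numbered 1 to 3, members with an unadjusted p under 0.05 numbered 0 to 3, and pathway genes with such a p 1 to 5. Without replicate 1 of day 14 the 3 members were *Fgf7*, *Fgf18* and *Spry2*, in a fit where 2559 genes in all had such a p. Without replicate 3 of day 10 it was *Fgf18*, in a fit where 1972 genes in all had such a p. With all samples 1954 genes had such a p, which is 10.0% of those tested. The percent was not computed for these 2 fits. Over all genes the same fits gave 937 to 2559 genes with an unadjusted p under 0.05 (lowest without replicate 1 of day 10) and 3 to 76 with an adjusted p under 0.05 (highest without replicate 2 of day 14). Pathway genes with an unadjusted p under 0.05 numbered 1 after median scaling and 1 without the mean-variance trend.

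With the replicate number as a block, 2 members had an unadjusted p under 0.05 from limma (*Fgf18*, 0.00346, and *Fgf7*, 0.0186), and neither had an adjusted p under 0.05. After subtracting the mean of each day, samples with the same number correlated at −0.00584 to 0.0888 over genes, and 4 of 6 correlated best with their own number. Whether samples with the same number share anything else is not given in the sources used here. The block moved the genes with an unadjusted p under 0.05 from 1954 to 2130 of the 19526 tested. Those with an adjusted p under 0.05 went from 3 to 2. A filter at a mean of 1 FPKM left out *Fgf2* and *Fgf9*. Estimated reads were fewest for *Fgf9*, and for *Fgf18* on day 10.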
